A study of Mus musculus with 6 samples.

Results

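The leukocytes described here were the sciatic nerve cells that carried Ptprc (the CD45 antigen of blood-derived cells) and almost no C1q, the complement component that marks resident macrophages. A cell was taken when its barcode had 500 to 5000 genes, at least 2 unique molecular identifiers (UMIs) of Ptprc, at most 2 UMIs of C1qa, C1qb and C1qc together, fewer than 10 of Dcn, a fibroblast gene, and none of Sox10, a Schwann cell gene, or Pecam1, an endothelial gene. By this rule 270 of 24337 cells were C1q-low leukocytes, chosen by their own UMIs of those 7 genes, 44 at postnatal day 1 (P1) and 226 at day 60 (P60). The rule used measured values, so levels of its own genes are given only as a description.

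The study profiled whole sciatic nerve cells by 10x Genomics 3′ sequencing in 3 libraries at P1 and 3 at P60. The mice of both ages carried P0Cre-/+, ReYFP Tg/+ and βAct-DsRed Tg/+ on a C57bl/6J background, with males and females pooled in equal numbers. The Cre line labels Schwann cells with YFP, whereas DsRed marks all cells and was the marker sorted for. At P1 a part of the YFP-positive Schwann cells was removed in the sort, at P60 it was not, so the cells without a Sox10 UMI serve below as the denominator of shares. The animals were not perfused, so leukocytes inside vessels and leukocytes in the nerve tissue cannot be told apart. The labels give no batch, so age and any day of preparation cannot be told apart either, and p-values measure the spread between the libraries.

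CD45-positive cells of a nerve other than its C1q-rich macrophages belong to several lineages. T cells and natural killer (NK) cells kill infected or altered cells and secrete cytokines, dendritic cells present antigen on major histocompatibility complex (MHC) class II, and monocytes enter from blood and can become macrophages or dendritic cells. Neutrophils, mast cells and B cells complete the list of lineages sought, each through its own granule proteins, proteases or immunoglobulin.

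The C1q-low leukocytes numbered 12, 14 and 18 in P1 replicates 1 to 3, and 59, 79 and 88 in P60 replicates 1 to 3. Their summed UMIs were 51037, 70184 and 99384 at P1, against 340212, 404473 and 446374 at P60, so every P1 value below rests on fewer molecules. The median UMIs per cell overlapped between ages, 4904 ± 770 at P1 and 4967 ± 449 at P60 (SD, n = 3; exact permutation test, two-sided p = 0.8). Across genes, which are not independent replicates, log CPM of the summed cells (CPM, a gene's UMIs scaled to 1000000 UMIs in all) had correlations of 0.738 to 0.844 between P1 libraries and 0.931 to 0.964 between P60 libraries. P60 replicate 3 held 8 of the 10 P60 cells with over 10% mitochondrial UMIs. Of the kept barcodes 676 occurred in more than 1 library, 3 of the C1q-low leukocytes among them, and no barcode was shared between 2 of these leukocytes. The doublet caller Scrublet would have left out 2 of them, and no cell was removed for it.

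Values beside the limits of the rule were as follows. Exactly 2 Ptprc UMIs were found in 25 of the 44 P1 cells and 81 of the 226 P60 cells, and 47 P1 and 89 P60 cells with 1 Ptprc UMI met every other limit. No C1q UMI was found in 37 P1 and 171 P60 cells, exactly 2 in 0 and 10, and just outside the limit 1 P1 and 6 P60 cells had 3. The cells with more than 2 C1q UMIs under the same other limits, called C1q macrophages below, numbered 126 at P1 and 166 at P60. Unlike the C1q-low leukocytes they differed in depth between ages. Their median UMIs per cell were 8231, 8297 and 8214 in the P1 libraries and 4154, 4224 and 4634.5 in the P60 libraries. The limits of the rule are raw UMIs and were not scaled to depth.

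The marker genes fitted leukocytes. Cd52, a surface glycoprotein of leukocytes, occurred in 43 of 44 P1 cells and 218 of 226 at P60, and in 1.28% and 3.30% of fibroblasts, taken as cells with at least 10 Dcn UMIs and no Ptprc. Coro1a, an actin regulator of blood cells, was found in 42 and 215 cells, against 2.13% and 1.78% of fibroblasts. H2-Aa, an MHC class II chain, occurred in 25 of 44 P1 cells and 176 of 226 at P60, while fibroblasts had it in 0.810% and 12.0%. Neither Cd52 nor Coro1a was found in 1 P1 and 4 P60 cells. The absence of C1q did not mean the absence of other macrophage genes. At least 2 of 8 macrophage markers (Adgre1, Mrc1, Csf1r, Cd163, Fcgr1, Mertk, Lyve1 and Folr2) were present in 12 of 44 P1 and 94 of 226 P60 cells, and none of them in 21 and 76.

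As a share of cells without Sox10, C1q-low leukocytes made up 0.445%, 0.421% and 0.569% in the P1 libraries and 1.76%, 1.77% and 1.98% in the P60 libraries. All P60 libraries lay above all P1 libraries, with means of 0.478% ± 0.0794 and 1.83% ± 0.126 (SD, n = 3). The exact permutation test gave a two-sided p = 0.1, the smallest that 3 libraries against 3 can give. Among all leukocytes counted here, the sum of C1q-low cells and C1q macrophages, the C1q-low cells were 20.3%, 26.9% and 30.5% at P1 and 57.8%, 65.8% and 51.8% at P60, again without overlap (exact permutation test, two-sided p = 0.1). The first difference, 1.36 percentage points, was 1.55 with at least 1 Ptprc UMI and 0.965 with at least 3.

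Each cell was placed in the lineage with the most distinct assigning markers, at least 2 and without a tie, any UMI counting as present. In P60 fibroblasts the 8 monocyte markers summed to 354 to 445 CPM and the 8 dendritic markers to 152 to 172 CPM. C1q-low leukocytes of that age had 1214 to 1783 and 600 to 764 CPM. The T and NK markers had 2.84 to 5.45 CPM in P60 fibroblasts. How far such background entered the calls was not tested. At P1, 10 cells each had dendritic or monocyte markers, 7 had T and NK markers, 6 macrophage markers and 1 B cell markers. At P60, 59 cells had monocyte markers, 46 macrophage markers, 32 T and NK markers and 24 dendritic markers. No cell was placed with neutrophils or mast cells, which allows a share of up to 6.82% at P1 and 1.33% at P60. A further 10 P1 and 65 P60 cells were not assigned, 5 and 37 of them because of a tie. Of the 37 tied cells at P60, 30 had as many macrophage as monocyte markers, so the border between these groups is not sharp. Lymphoid and myeloid markers, at least 2 of each, were found together in 0 P1 and 5 P60 cells.

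**Figure D1:**
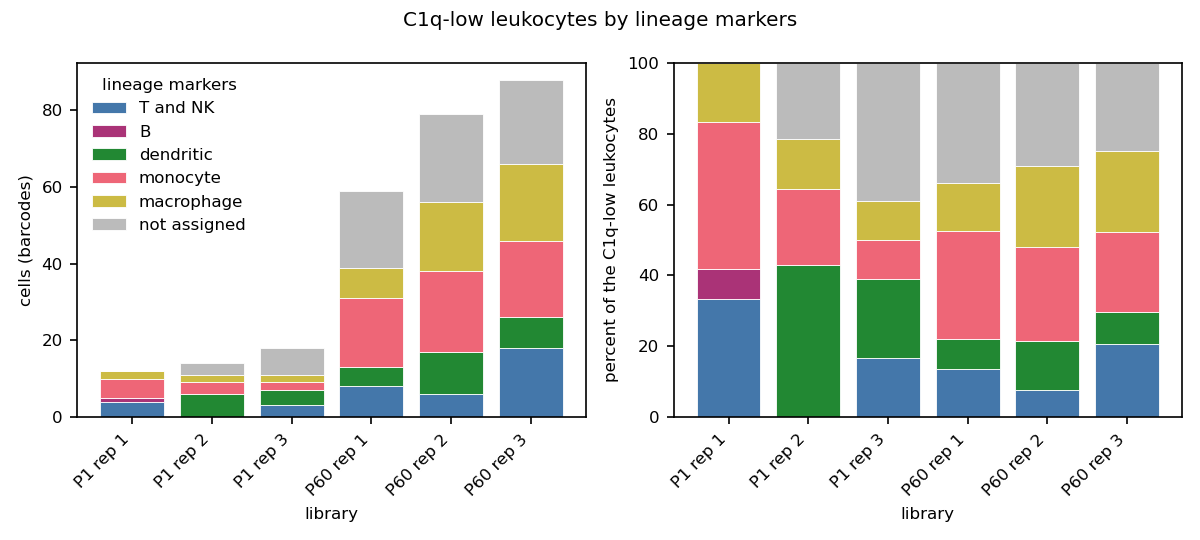
Stacked bars of the C1q-low leukocytes in each of the 3 P1 and 3 P60 libraries (x axis), as cells on the left and as a percent of the library's C1q-low leukocytes on the right, coloured by lineage markers. The dendritic share ranges from 0 to 42.9% over the P1 libraries, and each P60 library holds at least 59 cells of 4 lineages and unassigned cells.

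The shares of lineages among the C1q-low leukocytes were compared by an exact permutation test that cannot go below p = 0.1 with 3 libraries against 3, so no difference could pass at a threshold of 0.05. T- and NK-marked cells were 16.7% ± 16.7 at P1 and 13.9% ± 6.44 at P60 (SD, n = 3; exact permutation test, p = 0.9). Dendritic-marked cells were 21.7% ± 21.4 and 10.5% ± 2.98 (exact permutation test, p = 0.6). Monocyte-marked cells were 24.7% ± 15.5 and 26.6% ± 3.89 (exact permutation test, p = 0.8), and macrophage-marked cells 14.0% ± 2.79 and 19.7% ± 5.31 (exact permutation test, p = 0.3). All 8 adjusted p-values (Benjamini-Hochberg, including B, neutrophil, mast and unassigned cells) were 1. A P1 library held at most 6 cells of a lineage. As shares of the cells without Sox10, monocyte-marked cells took 0.113% ± 0.0643 at P1 and 0.485% ± 0.0453 at P60, and macrophage-marked cells 0.0658% ± 0.00743 and 0.364% ± 0.111. Both had a two-sided exact permutation p = 0.1 (adjusted p = 0.267 over the 8 groups).

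**Figure D2:**
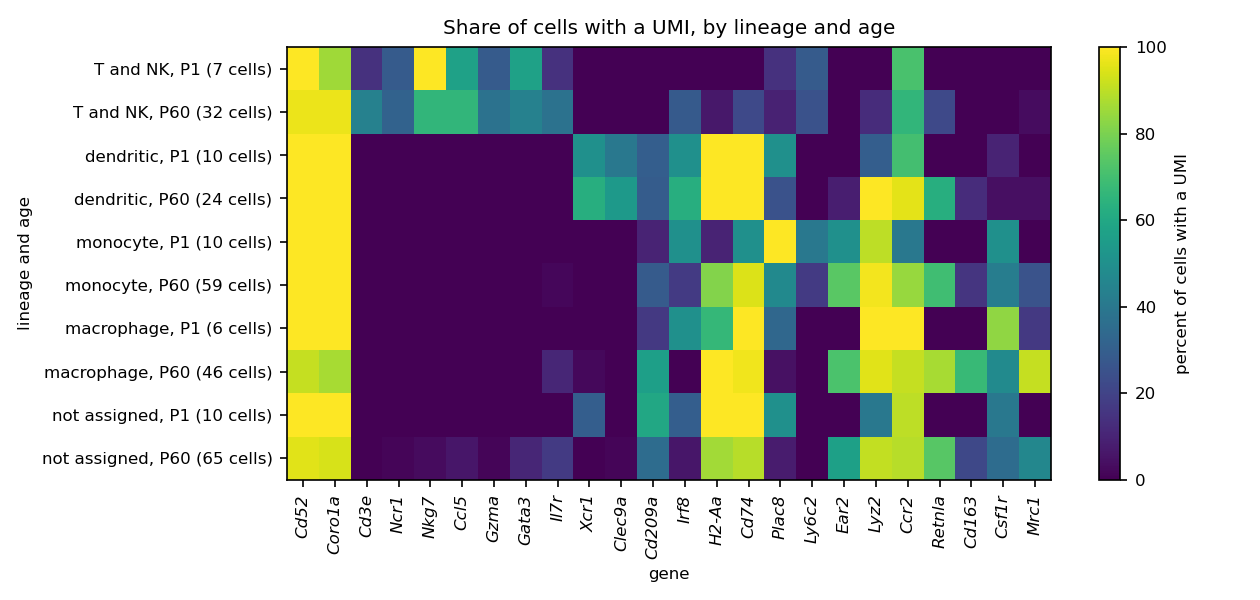
Share of cells with at least 1 UMI (colour, percent) of 24 genes (columns) in the lineage groups of C1q-low leukocytes at P1 and P60 (rows, with their cell numbers). Assigning markers define the rows and are shown as a description, and H2-Aa is found in 48 of 59 monocyte-marked cells at P60 and 1 of 10 at P1.

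T and NK markers were carried by 4, 0 and 3 cells in the P1 libraries and 8, 6 and 18 cells in the P60 libraries. The CD3 chains, Ncr1, Klrb1c and Trdc are among the 10 assigning markers of the group. Their counts therefore describe the call and give no proportion of T cells to NK cells. A CD3 chain (Cd3d, Cd3e or Cd3g), the signalling part of the T cell receptor, occurred in 6 of 7 P1 cells and in 18 of 32 at P60. Ncr1 or Klrb1c, receptors of NK cells, without a CD3 chain were found in 1 of 7 and 11 of 32. Of these 11 P60 cells 9 were in replicate 3, which held 18 of the 32. Ncr1 or Klrb1c together with a CD3 chain were found in 4 of 7 (all 3 cells of P1 replicate 3 among them) and 3 of 32. Beyond the markers Ccl5 and Gzma led at both ages. Ccl5, a chemokine for leukocytes, had 10313 CPM in the P60 cells and 5.47 in the other P60 C1q-low leukocytes, and Gzma, the protease granzyme A, had 4078 and 2.73. At P1 the levels were 2104 CPM for Ccl5 and 1881 for Gzma, and 0 for both in the other cells. Single cells carried these P1 levels, since 62 of 66 Ccl5 UMIs came from 1 cell of replicate 3 and 54 of 59 Gzma UMIs from 1 cell of replicate 1. Other leading genes at P60 were Ms4a4b (1277 CPM), Gimap4 (655 CPM), the receptor chain Trbc1 (880 CPM) and the kinase Lck (343 CPM), which T cells or lymphocytes at large express. At least 1 of the killing effectors Gzma, Gzmb and Prf1 was present in 2 of 7 P1 and 15 of 32 P60 cells. Of the 15 P60 cells 11 were in replicate 3. Il7r, the interleukin 7 receptor of resting and innate lymphocytes, was found in 1 of 7 and 12 of 32, and Gata3, a factor of T helper and innate lymphoid cells, in 4 of 7 and 14 of 32. Cd4, Cd8a and Foxp3 were each found in at most 2 P60 cells and in no P1 cell, and Trdc, a γδ receptor chain, in 1 and 5. In bulk over all C1q-low leukocytes, Gzma had 1058, 0 and 50.3 CPM at P1 and 103, 49.4 and 735 at P60. These groups overlapped (edgeR adjusted p = 0.997), and none of 4 tested cytotoxic genes of 10 listed passed the test.

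Dendritic markers were carried by 0, 6 and 4 cells at P1 and 5, 11 and 8 cells at P60. Xcr1 or Clec9a, receptors of the cross-presenting type 1 dendritic cells, was present in 5 of 10 P1 and 19 of 24 P60 cells. Cd209a, a lectin of type 2 dendritic cells, without either of them was present in 3 of 10 and 4 of 24. Siglech, a marker of plasmacytoid dendritic cells, was not found at either age, and Ccr7, the receptor for migration to lymph nodes, was found in 1 P1 cell. All of these genes are among the 8 assigning markers of the group. Their counts therefore describe the call and give no proportion of dendritic cell types. The leading gene of the P60 cells was Irf8, a transcription factor of type 1 dendritic cells, with 1367 CPM against 67.5 in the other cells. Others among the leading 10 were Ppt1 (624 CPM), Rtl8b (309 CPM), Cadm1, an adhesion molecule (190 CPM), Tlr3, a sensor of double-stranded RNA (83.2 CPM), Btla, an inhibitory receptor (95.1 CPM), and H2-Ob, which tunes class II loading (214 CPM). In the P1 cells the lectins Mgl2 (234 CPM) and Clec10a (252 CPM) led, Mgl2 with 13 UMIs in 2 of 10 cells of a single library.

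Monocyte markers were carried by 5, 3 and 2 cells at P1 and 18, 21 and 20 cells at P60. The marker genes behind the call differed between ages. Ly6c2 or Chil3, genes of classical monocytes, occurred in 7 of 10 P1 cells and 14 of 59 at P60, and Plac8 in 10 of 10 and 28 of 59. Ear2, Treml4 or Ace, genes of non-classical monocytes, was found in 6 of 10 and 48 of 59. Ccr2, the receptor that draws monocytes from bone marrow, was found in 4 of 10 and 50 of 59, and H2-Aa in 1 of 10 and 48 of 59. S100a8 or S100a9, calcium-binding proteins of neutrophils and classical monocytes, was found in 4 of 10 and 0 of 59. These are counts over cells and were not tested. At P60 the 8 assigning markers were not confined to this group, with a sum of 487 to 804 CPM in the libraries of C1q macrophages. All C1q-low leukocytes together had 1214 to 1783 CPM. Ly6c2, Chil3, Plac8, Ear2 and Treml4 are among those markers. Their counts therefore describe the call of the monocyte-marked cells and give no proportion of monocyte types. At P1 the leading genes were Cxcl2, a neutrophil chemokine (1642 CPM), Stfa3, a cysteine protease inhibitor (354 CPM), Hp, haptoglobin (253 CPM), and Lyz2, lysozyme M (13240 CPM). They were found in 4, 5, 4 and 9 of the 10 cells. At P60 the leading genes were Gngt2 (425 CPM), Lst1 (357 CPM), Sirpb1c (101 CPM), Hes1 (195 CPM) and Ace (71.4 CPM), each at most 21.5 CPM in the other P60 cells. They were found in 19, 26, 15, 17 and 12 of the 59 cells, so none of them marked most of the group.

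Macrophage markers prevailed in 2, 2 and 2 cells at P1 and 8, 18 and 20 cells at P60. Cd163, a haemoglobin scavenger receptor, was present in 0 of 6 P1 and 31 of 46 P60 cells, and Lyve1, a receptor of vessel-associated macrophages, in 0 and 2. Ccr2 was present in 6 of 6 and 42 of 46, and H2-Aa in 4 of 6 and 46 of 46. At P1, Ccl2, a monocyte chemokine (940 CPM), Ccl24 (324 CPM), Il1a (519 CPM) and F13a1 (486 CPM) led, found in 3, 2, 3 and 3 of the 6 cells. At P60 the leading genes were Sdc1 (55.7 CPM), Ccl17, a chemokine for T cells (240 CPM), and Ecm1 (445 CPM), found in 10, 11 and 32 of the 46 cells. The leading folds over the other cells were smaller than in the T- and NK-marked, dendritic-marked and monocyte-marked cells of that age. The 65 unassigned P60 cells were led by Ly6a (209 CPM against 74.7). All 10 unassigned P1 cells carried H2-Aa, 9 of them with at least 10 UMIs, and 6 of 10 carried the dendritic marker Cd209a (755 CPM against 150 in the other P1 cells).

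The only cell placed with B cells was a P1 cell of 2226 UMIs. It had 1 UMI each of Cd79b, Ms4a1 and Vpreb3 and 4 of Ighm, no UMI of Cd52 or Coro1a, and 73 of Col1a1, 50 of Col3a1 and 27 of Postn, genes of fibroblasts. It stays in the counts above because the rule includes it.

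Barcodes with lineage markers often missed the rule. With at least 3 assigning markers of a lineage other than macrophage in place of all its limits but that on genes, 75 P1 and 139 P60 barcodes were found, of which 19 and 78 were C1q-low leukocytes. Of the other 56 P1 barcodes 49 failed the Ptprc limit alone, and of the other 61 at P60 30 did, while 16 at P60 had too much Dcn, 11 a Pecam1 UMI and 8 too much C1q. Ptprc in these barcodes was 219, 189 and 278 CPM in the P1 libraries and 493, 487 and 623 CPM in the P60 libraries, without overlap (229 ± 45.5 and 534 ± 76.8 CPM, SD, n = 3; exact permutation test, p = 0.1). The share of them that met the rule was 28.6%, 18.2% and 27.8% at P1 and 52.3%, 53.5% and 61.5% at P60. As a share of cells without Sox10 these barcodes were 1.30%, 0.661% and 0.569% at P1 and 1.31%, 0.962% and 1.17% at P60, and the ages overlapped (0.843% ± 0.398 and 1.15% ± 0.176; exact permutation test, p = 0.3). The gap between ages was 0.305 percentage points for them. For barcodes with as many markers that also met the whole rule it was 0.423 (0.216% and 0.640%; exact permutation test, p = 0.1), and when the Ptprc limit alone was dropped it was 0.131 (0.762% and 0.894%; exact permutation test, p = 0.7). These settings leave out cells with fewer markers and macrophage-marked cells, so they do not compare with the 1.36 points above. By the rule, a lower Ptprc level and a lower number of leukocytes at P1 cannot be told apart.

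Cells of some lineages lay outside the rule. Mast cell proteases marked 8 P1 barcodes and no P60 barcode, and none of the 8 met the Ptprc limit. They held 2 UMIs of Ptprc together, against 2718 of Cma1, 2022 of Tpsb2 and 1125 of Cpa3, the chymase, tryptase and carboxypeptidase of mast cell granules, and 56 of Hdc, the histamine-forming enzyme. B cell markers were carried by 8 P1 and 8 P60 barcodes, of which 1 and 0 met the rule. They held 3 and 8 Ptprc UMIs, beside 77 and 49 of Cd79a and 118 and 55 of Ighm. Vpreb3, another of the B cell markers, had 41 and 1 UMIs. Neutrophil markers were carried by 2 P1 barcodes, neither of them with 2 Ptprc UMIs. S100a9, Retnlg, Ngp, Camp and Ltf were each found in only 1 of the 2, and 291 of 292 S100a8 UMIs lay in a single barcode. By contrast, 29 of 49 T- and NK-marked, 17 of 27 dendritic-marked and 32 of 55 monocyte-marked P60 barcodes met the rule, against 7 of 15, 3 of 17 and 8 of 25 at P1.

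**Figure D3:**
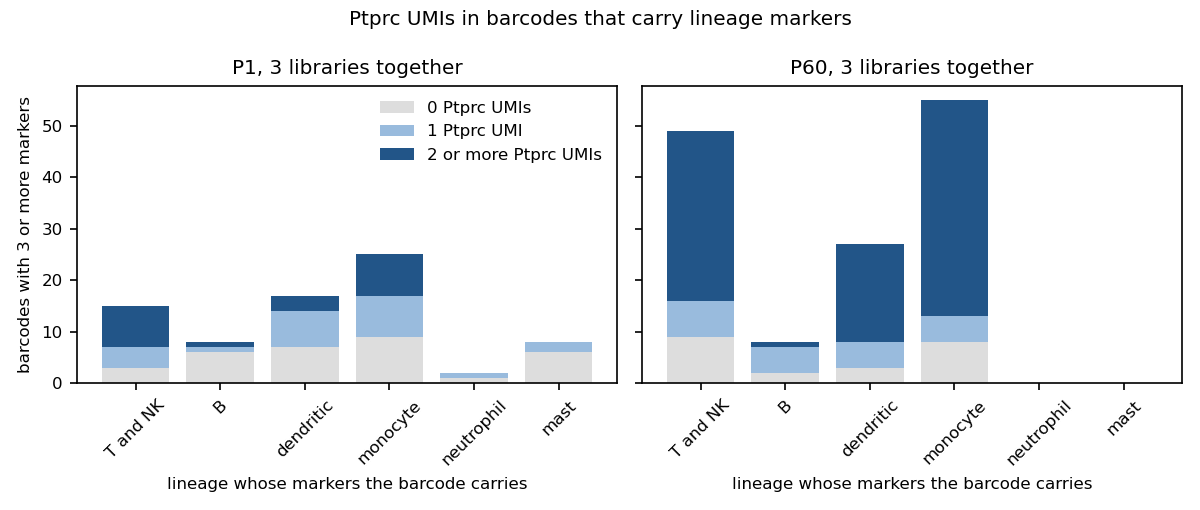
Number of barcodes with at least 3 assigning markers of a lineage (y axis), by lineage (x axis) and age (panels), split by their Ptprc UMIs (0, 1, or 2 and more; colours). None of the 8 mast-marked P1 barcodes and 33 of the 49 T- and NK-marked P60 barcodes had 2 or more.

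The UMIs of the C1q-low leukocytes were summed per library and compared between ages by edgeR's quasi-likelihood test over 2776 genes with enough counts. At P60, 77 genes were higher (2.77% of those tested) and 39 lower (1.4%), in all 116 genes or 4.18% at an adjusted p under 0.05. The library values of 747 genes (26.9%) did not overlap between ages, all 116 among them. The count changed with the library left out, and so did the number of genes tested. It was 59 of 4655 without P1 replicate 2, 28 of 1510 without P60 replicate 1 and 22 of 1525 without P60 replicate 2. In the last 2 of these fits 87 and 86 of the 116 genes could be tested. The count was 162 of 4482 without P1 replicate 1, 91 of 4450 without P1 replicate 3 and 92 of 1497 without P60 replicate 3. The sums mix lineages, and no lineage had enough cells at P1 for a test of its own. With all cells that carried any macrophage marker left out, none of 982 tested genes passed by edgeR (81 at an unadjusted p under 0.05), and of the 116 genes 51 could be tested there. That setting held 21 P1 and 76 P60 cells and was chosen after the values were seen. Many of the 116 age differences were shared with C1q macrophages, where the same edgeR test passed 526 higher and 359 lower of 4166 genes. Of the 77 higher genes 68 were tested there, and 58 passed in the same direction. Of the 39 lower genes 37 were tested there, and 20 passed in the same direction. None passed in the opposite direction.

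Of 36 genes named below that passed, 17 also passed in every fit that left out 1 library and still tested them. Among these were Retnla, Lyz1, Lyz2, Fcrls, Fn1, Ccl6, Ccl9 and Lgmn, tested in all 6 such fits. Also among them were Cd209d and Blnk, tested in 4 of the 6, and Cd163, Aldh1a2 and Trem2, tested in 3. Of the 36 genes, the other 19 missed the threshold in at least 1 such fit. Without P1 replicate 2, 12 genes were lost (Ccl17, Ccr1, Cd2, H2-D1, H2-Q7, Havcr2, Hpgd, Hspa8, Il1rl1, Mgl2, Sfrp5 and Tlr2, adjusted p from 0.0510 to 0.146). Without P1 replicate 3, 13 were lost, namely 9930111J21Rik2, Ccl17, Ccr1, Cd2, H2-D1, H2-Q7, Hpgd, Hspa8, Il1rl1, Ly6a, Mcm6, Sfrp5 and Tgif1 (adjusted p from 0.0510 to 0.254). Without P60 replicate 1, 10 were lost (Ccr1, Cd2, Col1a2, H2-D1, Hpgd, Hspa8, Mcm6, Mgl2, Tgif1 and Tlr2, adjusted p from 0.0505 to 0.116). Without P60 replicate 2, 12 were lost, namely Ccr1, Cd2, Clec4n, Col1a1, Col1a2, H2-D1, H2-Q7, Hpgd, Mcm6, Mgl2, Tgif1 and Tlr2 (adjusted p from 0.0568 to 0.124). Mcm6 was also lost without P1 replicate 1 and, with Mgl2, without P60 replicate 3.

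Retnla and Lyz1 had the largest rises at P60, from no UMI at P1. Retnla (chromosome 16, 48842551 to 48844461, GRCm38), a secreted protein of alternatively activated macrophages, had no UMI in any P1 library and 12636, 14189 and 8271 CPM at P60. This was at least 848-fold higher, taking 3 UMIs over the P1 group as the floor (edgeR adjusted p = 1.08e-05). It was not spread evenly over the P60 cells. At least 10 Retnla UMIs were found in 0 of 32 T- and NK-marked and 0 of 24 dendritic-marked cells, but in 31 of 59 monocyte-marked, 29 of 46 macrophage-marked and 38 of 65 unassigned cells. A single Retnla UMI was no sign of expression at P60, since 38.9% of fibroblasts had one, and for this reason 10 UMIs were used, a limit set after the values were seen. Of 7262 P60 fibroblasts 0.275% had 10. In C1q macrophages Retnla was likewise at 0 at P1 and at 25343 ± 6709 CPM at P60 (SD, n = 3). Without the cells that carried a macrophage marker, the gene had a fitted log2 difference of 11.02, which depends on the prior count (edgeR adjusted p = 0.213). All 51 genes of the 116 that could be tested there kept their direction. The cells left in are part of the full sums, so the shared direction is no separate support.

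Lyz1 (chromosome 10, 117287797 to 117292868), lysozyme of Paneth cells and of some myeloid cells, had 0 UMIs at P1 and 1808, 2047 and 2648 CPM at P60, at least 162-fold higher (edgeR adjusted p = 2.91e-05). Lyz2, its close copy and the lysozyme of myeloid cells in general, had 4115, 2850 and 2425 CPM at P1 and 7739, 11066 and 8081 at P60 (log2 difference 1.63 ± 0.23, edgeR adjusted p = 0.00504). How reads shared between both copies were counted was not given in the sources used here. Fn1, fibronectin, which monocytes also make, rose from 157, 114 and 101 CPM to 755, 972 and 1140 (log2 difference 3.09 ± 0.28, edgeR adjusted p = 0.000313). Each of the 3 genes was higher in all P60 libraries than in any P1 library.

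The chemokines Ccl6 and Ccl9, which attract myeloid cells, rose together. Ccl6 had 411, 356 and 352 CPM at P1 and 2046, 2999 and 1577 at P60, 6.35-fold (log2 difference 2.67 ± 0.26, edgeR adjusted p = 0.000504). Ccl9 had 137, 299 and 282 CPM at P1 and 1073, 1261 and 921 at P60 (2.22 ± 0.28, edgeR adjusted p = 0.00369). They were the only 2 of 11 tested chemokine and cytokine genes of 18 listed that passed, and the list's median log2 difference was −0.06, against 0.01 over all genes tested. Ccl2 and Il1b of the same list did not pass.

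Genes of several receptors rose too. Fcrls (chromosome 3, 87250758 to 87263738), a scavenger receptor of the Fc receptor-like family, had 0, 14.2 and 0 CPM at P1 and 473, 571 and 374 at P60 (log2 difference 6.62 ± 0.60, edgeR adjusted p = 0.000313). Cd209d, a lectin of the DC-SIGN family, was at 0 at P1 and at 153, 168 and 94.1 CPM at P60 (at least 10.0-fold, edgeR adjusted p = 0.00981). Cd163 was at 0 at P1 and at 73.5, 69.2 and 94.1 CPM at P60 (at least 5.87-fold, edgeR adjusted p = 0.0141). Mgl2, the lectin CD301b, rose from 0, 14.2 and 131 CPM to 497, 294 and 439 (2.85 ± 0.60, edgeR adjusted p = 0.0246), and Ccl17 from 0, 0 and 20.1 to 168, 136 and 62.7 (3.75 ± 0.85, edgeR adjusted p = 0.0321). Mgl2 and Ccl17 were 2 of 9 tested genes of the 18 on the dendritic subset list, whose median was 0.80.

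**Figure D4:**
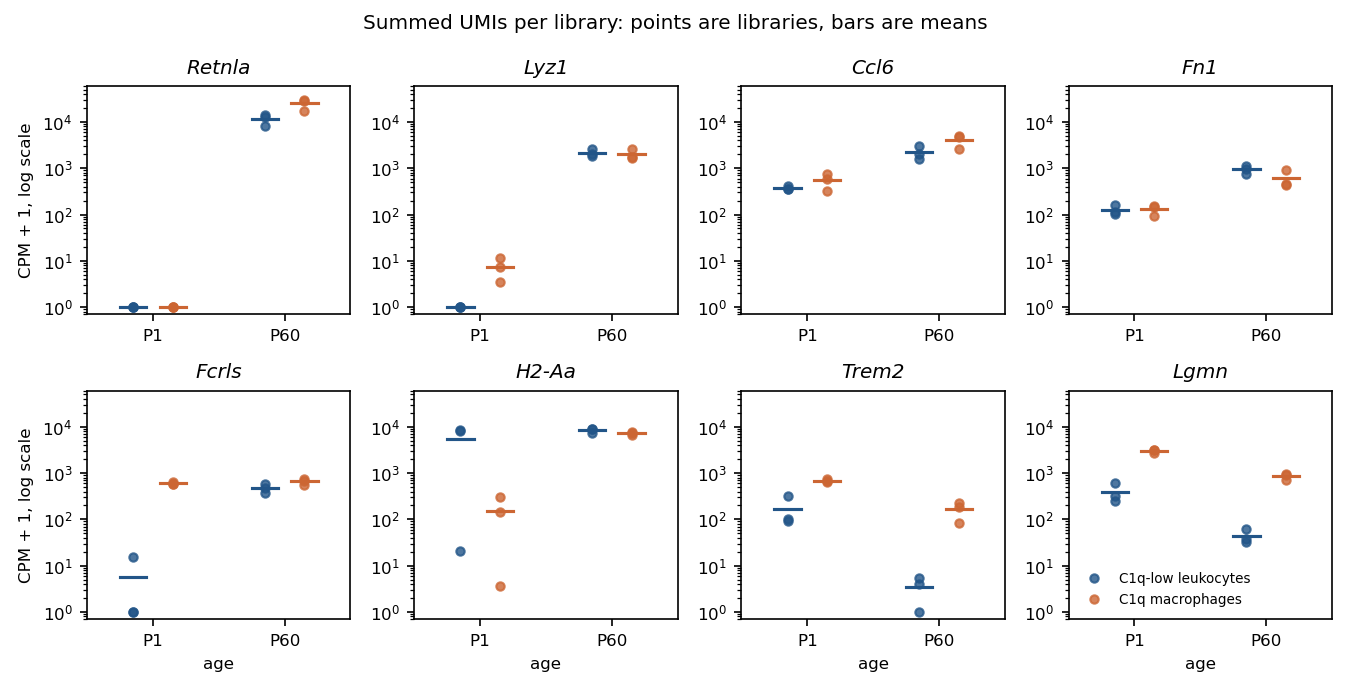
CPM + 1 (log axis) of 8 genes in each P1 and P60 library, for C1q-low leukocytes and C1q macrophages, with 1 point per library and a bar at the mean. Retnla and Lyz1 have no UMI in the P1 C1q-low leukocytes, Fcrls is at most 14.2 CPM there and at least 374 CPM at P60, and H2-Aa is at 19.6 CPM in P1 replicate 1 against at least 7355 CPM in the other libraries of C1q-low leukocytes.

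Blnk, an adaptor of B cell receptor signalling that myeloid cells also use, was at 0 at P1 and at 103, 111 and 62.7 CPM at P60 (at least 6.67-fold, edgeR adjusted p = 0.016). Aldh1a2, which makes retinoic acid, was at 0 at P1 and at 64.7, 74.2 and 80.6 CPM at P60 (at least 5.43-fold, edgeR adjusted p = 0.014). Il1rl1, the interleukin 33 receptor, had 0, 0 and 10.1 CPM at P1 and 76.4, 61.8 and 60.5 at P60 (3.80 ± 0.76, edgeR adjusted p = 0.0186), and was the only one of 3 tested genes among 22 of T and innate lymphoid subsets to pass. Cd2, an adhesion molecule of T, NK and some dendritic cells, rose from 39.2, 0 and 0 CPM to 115, 148 and 117 (3.80 ± 0.74, edgeR adjusted p = 0.0178). The transcripts 9930111J21Rik2 and Gm12840, of no function known with certainty, had at most 14.2 CPM at P1 and at least 61.8 at P60.

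Single genes of the MHC class I and interferon response lists were higher at P60, beside 2.77% of all genes tested. H2-D1, an MHC class I heavy chain, had 1450, 1111 and 1127 CPM at P1 and 2398, 1812 and 2081 at P60 (0.88 ± 0.17, edgeR adjusted p = 0.0183). H2-Q7, a class Ib chain, rose from 0, 14.2 and 20.1 CPM to 118, 69.2 and 114 (2.93 ± 0.63, edgeR adjusted p = 0.0267). They were 2 of 10 tested genes of 13 on the class I list, with a median of 0.21, and the H2 genes share sequence, so reads may be split between them. Both tested genes of 14 on the interferon list passed, too few to speak for the list. In C1q macrophages 6 of 7 tested interferon genes and 4 of 9 tested class I genes were higher at P60 (edgeR, adjusted p under 0.05). Over all genes tested there it was 526 of 4166. The following levels are those of C1q-low leukocytes. Ifi27l2a rose from 294, 299 and 171 CPM to 852, 833 and 1337 (2.12 ± 0.30, edgeR adjusted p = 0.00504). Ly6a rose from 0, 28.5 and 10.1 CPM to 135, 136 and 73.9 (3.11 ± 0.67, edgeR adjusted p = 0.0264), and fibroblasts had 451 CPM of it at P1 and 1921 CPM at P60.

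MHC class II showed a P1 library that stood apart from the other 2. H2-Aa had 19.6, 8349 and 8170 CPM at P1 and 8897, 8782 and 7355 at P60. Cd74, the invariant chain, had 255, 21415 and 19259 CPM at P1 and 28359, 29315 and 21377 at P60, and H2-Ab1 had 0 CPM in P1 replicate 1. P1 replicate 1 was also the library without a dendritic-marked cell, and cells with at least 10 H2-Aa UMIs numbered 0, 8 and 14 in the P1 libraries. None of 9 tested genes of 10 on the list passed (H2-Aa 0.64 ± 0.92, edgeR adjusted p = 0.769, and Cd74 1.00 ± 0.91, adjusted p = 0.599), with a median of 0.62. Without P1 replicate 1 the log2 difference of H2-Aa was 0.08 (adjusted p = 0.833). Class II and Retnla overlapped at P60, where 83 of 226 cells had at least 10 UMIs of both, 79 of them with a Ccr2 UMI. At least 10 of H2-Aa alone were found in 22 of 44 P1 and 67 of 226 P60 cells. The overlap was not particular to C1q-low leukocytes. Of 166 P60 C1q macrophages 57 had both, 46 of them with a Ccr2 UMI, and 60 had H2-Aa alone. In C1q macrophages 7 of 7 tested class II genes were higher at P60 (edgeR, adjusted p under 0.05), beside 526 of all 4166 genes tested there.

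Trem2, Clec4n and Lgmn, genes that phagocytes use, were lower at P60. Trem2 (chromosome 17, 48346401 to 48354147), a lipid receptor of macrophages, fell from 313, 99.7 and 90.6 CPM to 2.94, 0 and 4.48 (log2 difference −5.54 ± 0.73, edgeR adjusted p = 0.00472). Lgmn (chromosome 12, 102394084 to 102439813), a lysosomal protease, fell from 607, 313 and 252 CPM to 61.7, 32.1 and 35.8 (−3.02 ± 0.38, edgeR adjusted p = 0.00369). Clec4n, the fungal receptor dectin-2, fell from 196, 99.7 and 111 CPM to 11.8, 4.94 and 0 (−4.43 ± 0.64, edgeR adjusted p = 0.00504). For each of them all P1 libraries lay above all P60 libraries.

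Tlr2, Havcr2 and Ccr1 fell as well. Tlr2, a sensor of bacterial lipoproteins, fell from 255, 128 and 90.6 CPM to 32.3, 14.8 and 22.4 (−2.54 ± 0.46, edgeR adjusted p = 0.0136). Havcr2, the inhibitory receptor TIM-3, fell from 78.4, 171 and 50.3 CPM to 11.8, 4.94 and 8.96 (−3.36 ± 0.60, edgeR adjusted p = 0.0131). Ccr1, a receptor for several CC chemokines, fell from 98.0, 171 and 191 CPM to 17.6, 37.1 and 51.5 (−2.03 ± 0.45, edgeR adjusted p = 0.0289) and was the only one of 5 tested chemokine receptors of 15 to pass. The median of that list was −1.19, and Ccr2 went the other way without passing (470, 499 and 604 CPM at P1 and 723, 764 and 717 at P60, edgeR adjusted p = 0.14).

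Hpgd, which degrades prostaglandins, fell from 58.8, 142 and 413 CPM to 32.3, 7.42 and 35.8 (−3.05 ± 0.65, edgeR adjusted p = 0.0246). Its annotated span overlaps another gene on the same strand. Rogdi, a component of vesicle acidification, fell by 2.83 and Tgif1, a repressor of transforming growth factor signalling, by 2.68 on the log2 scale. Mcm6, a subunit of the replication helicase, fell from 196, 71.2 and 161 CPM to 35.3, 37.1 and 35.8 (−1.85 ± 0.38, edgeR adjusted p = 0.0204). It was the only one of 7 tested genes of 16 on the cell cycle list to pass, and the list's median was −1.06. Hspa8, a heat shock protein, fell by 0.94 on the log2 scale and was the only one of 13 tested dissociation response genes of 14 to pass (list median −0.41).

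Fibroblast transcripts differed between ages in the direction of their levels in the fibroblasts of the same libraries. Col1a1, a collagen I chain, had 1646, 313 and 513 CPM at P1 and 55.9, 27.2 and 56.0 at P60 (−3.96 ± 0.55, edgeR adjusted p = 0.00504), and Col1a2 fell too (−2.86 ± 0.42, edgeR adjusted p = 0.00504). In fibroblasts Col1a1 ranged from 10462 to 11340 CPM at P1 and from 1449 to 2307 CPM at P60. In the opposite direction, Sfrp5, a Wnt inhibitor, was at 0 in P1 C1q-low leukocytes and at 115, 133 and 51.5 CPM at P60. Pi16, a marker of adventitial fibroblasts, was at 0 and at 118, 101 and 71.7 CPM. In P60 fibroblasts Sfrp5 had 2492 to 4339 and Pi16 1745 to 2294 CPM. The summed 8 fibroblast markers were 769 to 3978 CPM at P1 and 690 to 805 at P60 in C1q-low leukocytes, and 30809 to 38771 in fibroblasts. Both for Col1a1 and for this sum, the value of P1 replicate 1 includes the B-marked cell described above, with its 73 Col1a1 and 50 Col3a1 UMIs. The part of free RNA in these values was not tested. Without the 5 cells that had neither Cd52 nor Coro1a, Col1a1 differed by −2.91 (edgeR adjusted p = 0.00497).

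Of the other lists, B cell stages had 1 tested gene of 14 and neutrophil granules 2 of 15, and none passed. The 1 tested gene of 14 of fetal and imprinted growth, Meg3, had a log2 difference of −3.12 (edgeR adjusted p = 0.0501). No gene of the mast cell proteases had enough counts to be tested. Cells expected to keep an Mki67 or Top2a UMI, genes of the cell cycle, when each cell is thinned to 1000 UMIs made up 11.3%, 6.78% and 2.25% at P1 and 8.07%, 2.97% and 6.68% at P60. The ages overlapped (6.79% ± 4.54 and 5.91% ± 2.64, SD, n = 3; exact permutation test, p = 0.9). Before thinning the shares were 18.8% ± 8.92 and 11.9% ± 5.33 (exact permutation test, p = 0.5). In C1q macrophages the thinned share was 10.1% ± 0.157 at P1 and 4.32% ± 2.11 at P60, without overlap (exact permutation test, p = 0.1), and whether the ages differed more there was not tested.

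Whether an age difference itself was unlike that of C1q macrophages was tested for 5006 genes in a single fit over both classes. It was for 25 genes (0.499%), more positive in C1q-low leukocytes for 5 (0.0999%) and more negative for 20 (0.4%). Fcrls differed most in the positive direction, rising in C1q-low leukocytes while it had 601 ± 24.4 CPM at P1 and 664 ± 94.7 CPM at P60 in C1q macrophages (difference of log2 differences 6.40 ± 0.61, edgeR adjusted p = 3.51e-05). Hmox1, haem oxygenase, had 38.8 and 70.8 CPM in C1q-low leukocytes but 2516 and 447 in C1q macrophages (3.61 ± 0.66, edgeR adjusted p = 0.0172). Trem2 was lower at P60 in both and fell further in C1q-low leukocytes (−3.61 ± 0.70, edgeR adjusted p = 0.023), with means of 688 and 165 CPM in C1q macrophages.

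Several of the 20 genes with a negative difference were low in C1q macrophages at P1 and already present in C1q-low leukocytes. Ear2, a ribonuclease of non-classical monocytes, went from 0 to 311 CPM in C1q macrophages and from 99.2 to 505 in C1q-low leukocytes (−6.90 ± 0.92, edgeR adjusted p = 0.0021). Cd209a went from 0.819 to 96.2 CPM and from 263 to 559 (−5.05 ± 0.91, edgeR adjusted p = 0.0164). Ccr2 went from 98.9 to 532 CPM and from 524 to 735 (−1.98 ± 0.40, edgeR adjusted p = 0.0312). For class II, H2-DMb1, a peptide-loading chaperone, passed (−2.80 ± 0.58, edgeR adjusted p = 0.0349), rising from 46.9 to 568 CPM in C1q macrophages and having 564 and 881 in C1q-low leukocytes. H2-Aa had −4.52 ± 1.34 (edgeR adjusted p = 0.139) and −6.12 without P1 replicate 1 (adjusted p = 2.53e-05), with 148 and 7203 CPM in C1q macrophages. The number of genes that passed was 89 without P1 replicate 1, 16 without P60 replicate 1, and 11 without P1 replicate 2 or without P60 replicate 3. Of 20 named genes that passed, only Fcrls, C3ar1, Klf4, Ly6e and Ifitm6 passed whichever library was left out. H2-DMb1 and Ccr2 passed in 1 of 6 such fits each, Trem2 and Cd209a in 3, and Hmox1 and Ear2 in 5.

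**Figure D5:**
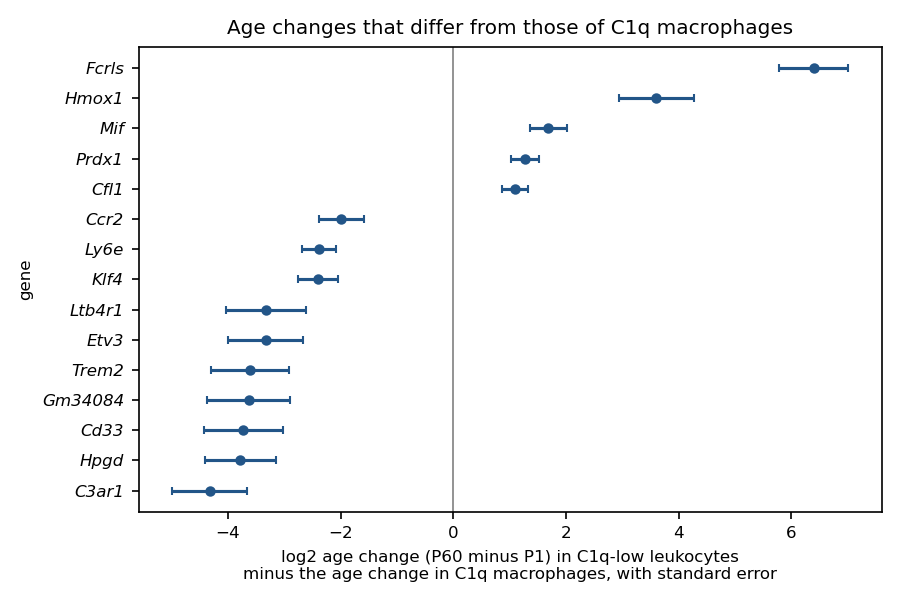
For 15 genes (y axis), the log2 difference between P60 and P1 in C1q-low leukocytes minus that in C1q macrophages (x axis, ± SE), from the fit of both classes. Fcrls lies farthest to the right at 6.40, and 10 genes from C3ar1 at −4.32 to Ccr2 at −1.98 lie left of 0.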

How the data were processed

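Per the labels, the authors counted UMIs per gene and cell with Cell Ranger 2.0.2 on GRCm38.p5, and these deposited counts were used as they are. The study's text names a human build, but the gene identifiers are those of mouse Ensembl. Cells, lineages and gene lists were chosen with earlier results of these data known. UMIs of the C1q-low leukocytes were summed per library, normalized by TMM, and tested with edgeR 4.0.16 (R 4.3.3, quasi-likelihood, filterByExpr, Benjamini-Hochberg over all genes tested, threshold 0.05), with the age by class test blocked on library. CPM is a gene's UMIs scaled to a total of 1000000, SD is over 3 libraries, and SE is the log2 difference over the root of the F statistic. Shares were compared by two-sided exact permutation tests in scipy 1.17.1, and a count of 0 was taken to allow 3 counts. Intervals and such floors cover counting error only.

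Named genes were those of the marker and gene lists, and, for each test and direction, the 10 with the largest log2 change among those passing, not overlapping between ages and with a mean of at least 50 CPM in the higher age, without the genes of the rule, assigning markers, haemoglobin, mitochondrial and receptor segment genes. Leading genes of a lineage were the 10 highest by fold over the other cells of that age, with 10 CPM added to both and a UMI in at least 20% of cells. Coordinates are those of the GRCm38 annotation. The scripts were tested on simulated counts. Alternatives were DESeq2 1.42.0, other scaling, filters and limits, a replicate block and leaving out libraries.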

Additional observations from a re-analysis of the deposited data

Results flagged for a closer look

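For 20 named genes the age difference in C1q-low leukocytes was unlike that in C1q macrophages by the test of the difference itself (edgeR, adjusted p under 0.05). All values below are the log2 difference between P60 and P1 in C1q-low leukocytes minus that in C1q macrophages, ± SE, and levels are means of 3 libraries in CPM at P1 and P60.

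The difference was positive for 5 genes. The value was 6.40 ± 0.61 for Fcrls and 3.61 ± 0.66 for Hmox1, both described above. Mif, macrophage migration inhibitory factor, had 1.69 ± 0.32 (adjusted p = 0.0211), with 207 and 208 CPM in C1q-low leukocytes and 424 and 132 in C1q macrophages. Prdx1, a peroxiredoxin, had 1.27 ± 0.25 (adjusted p = 0.0254), and Cfl1, the actin-severing cofilin, 1.09 ± 0.23 (adjusted p = 0.0371).

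It was negative with a lower level at P60 in C1q-low leukocytes for a group of surface receptors and enzymes. C3ar1, the complement C3a receptor, had −4.32 ± 0.67 (adjusted p = 0.00448), with 116 and 2.71 CPM in C1q-low leukocytes and 517 and 297 in C1q macrophages. Hpgd had −3.78 ± 0.63 (adjusted p = 0.0104), with 205 and 25.2 CPM against 135 and 206. Cd33, a sialic acid lectin, had −3.73 ± 0.70 (84.0 and 3.53 CPM against 148 and 84.9). Trem2 had −3.61 ± 0.70, and the transcript Gm34084 −3.63 ± 0.74.

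Transcription factors and monocyte genes followed. Klf4, a factor of monocyte differentiation, had −2.40 ± 0.36 (adjusted p = 0.00337), with 248 and 177 CPM in C1q-low leukocytes and 84.3 and 346 in C1q macrophages. Ly6e had −2.38 ± 0.30 (adjusted p = 0.000969), with 779 and 406 CPM against 209 and 591. Etv3, a repressor of the ETS family, had −3.33 ± 0.67 (99.7 and 106 CPM against 7.84 and 86.7), and Ltb4r1, the leukotriene B4 receptor, −3.32 ± 0.71 (196 and 282 CPM against 5.47 and 101). Ifitm6 had −4.53 ± 0.59 (231 and 274 CPM against 8.18 and 225), and the NK receptor chain Klrd1 −6.16 ± 1.27 (217 and 99.2 CPM against 0 and 14.5). Ear2 had −6.90, Cd209a −5.05, H2-DMb1 −2.80 and Ccr2 −1.98, as described above. Against a group whose libraries are all at 0, as for Ear2 and Klrd1, the size depends on the prior count of the fit. Leaving out 1 library in turn, the calls of Fcrls, C3ar1, Klf4, Ly6e and Ifitm6 remained in all 6 fits, those of the other 15 genes in 1 to 5.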

How the results depend on the processing

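No result past a threshold changed direction in the alternatives run. The age differences of the T and NK, dendritic, monocyte, unassigned and cycling shares, none past a threshold, changed sign in some of them. Of the shares and counts that answer a comparison, 121 alternative values stayed on their side and 21 moved. Of the values of single genes, 136 lost significance, 6 gained it and 580 did neither. The share of C1q-low leukocytes among cells without Sox10 differed between ages by 1.55 points with at least 1 Ptprc UMI, 0.965 with at least 3, 0.974 without any C1q UMI, 0.305 for barcodes with 3 lineage markers in place of the rule, 0.423 for those that also met the rule and 0.131 for those that met it without its Ptprc limit. With at least 3 Ptprc UMIs the cycling share differed by −7.01 points and the T and NK share by −21.9, and without thinning the cycling share differed by −6.86. The age test passed 430 genes without a filter on low counts, 0 without cells that carried a macrophage marker (edgeR, 81 at an unadjusted p under 0.05), and 22 to 162 when libraries were left out in turn. Library size alone as the scaling gave 69 higher and 54 lower genes (56.1% higher, against 66.4%), with the median of all genes at −0.10. DESeq2 gave 114, with Il1rl1 among the genes lost. The age by class test passed 15 genes by DESeq2, 115 without a filter, 58 without T-, NK- and B-marked cells, and 11 to 89 when libraries were left out in turn. Where an arm kept 2 libraries, its spread was pooled with the other age. The cause of these changes was not tested.

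The replicate numbers are only names. Deviations of same-numbered P1 and P60 libraries correlated at 0.0463 to 0.0926 over genes, and each P1 library correlated best with its own number, a hint from the data only. With a replicate block the age test passed 116 genes (78 higher, 38 lower), 99 of them shared with the fit without it.

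The age tests within single lineages were not run, since no lineage had 10 cells in a P1 library. Depth limits the P1 values most, with 220605 UMIs in 44 cells against 1191059 in 226 at P60. The settings without macrophage-marked cells, without T-, NK- and B-marked cells, with a Cd52 or Coro1a UMI, and those with 3 lineage markers were chosen after seeing the data.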
